A study of Mus musculus with 21 samples.

Results

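Atf4 and 9 genes known as its targets or partners in the integrated stress response, namely Chac1, Trib3, Asns, Phgdh, Psat1, Ddit3, Atf3, Ppp1r15a and Sesn2, were followed in sorted mouse Paneth cells. These 10 genes were picked by name out of 55414 gene identifiers in the deposited table. The set was put together because Chac1 had been seen to be higher in germ-free mice. The values of Chac1 in germ-free libraries, and those of all 10 genes in germ-free against control mice on Milli-Q water, thus chose the set. Comparisons of groups by these values are given below as a description without a test. Calls of Chac1 in them enter some counts and are not read as tests. Only deviations of Chac1 from its group means, germ-free libraries included, enter a test of correlation. All 10 genes passed the filter on low counts and were among the 13070 genes tested. Counts were low for Trib3 (7 to 69 a library), Ddit3 (9 to 156), Chac1 (7 to 266) and Atf3 (5 to 270).

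The integrated stress response starts when a kinase phosphorylates the translation factor eIF2alpha: Gcn2 when amino acids run short, Perk under stress of the endoplasmic reticulum, Hri when mitochondria or heme supply are disturbed, and Pkr upon double-stranded RNA. General translation then falls while the mRNA of Atf4 is translated more, and the Atf4 protein switches on genes for amino acid synthesis, amino acid uptake, tRNA charging and redox balance. Since Atf4 is controlled to a large extent at the level of translation, its mRNA is not a readout of its protein. Paneth cells are secretory cells at the base of the small intestinal crypt, filled with alpha-defensins, and this heavy secretory load makes them a cell type in which such stress pathways are often studied.

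The data were bulk RNA-seq of Paneth cells collected by FACS from the small intestine of C57BL/6J mice, each library from a single mouse as far as the study describes it. Specific pathogen-free (SPF) mice, SPF mice on broad spectrum antibiotics and germ-free (GF) mice received either Milli-Q water or water with 200 mM ZnSO4 for 7 weeks, and the antibiotics (ABX) covered the last 3 of these weeks. This gave 6 groups: 3 SPF and 4 ABX libraries on each water, 3 GF libraries on Milli-Q and 4 GF libraries on zinc. The age of the mice, and whether contexts were sorted or sequenced together, are not given in the sources, so that any such batch and the microbiome context cannot be told apart. Libraries held 9888174 to 16896714 counts, and the lowest total was that of GF zinc replicate 1. Paneth cell RNA was abundant, since the 28 Defa genes took 24.1% to 36.4% of the counts in SPF and ABX libraries and 39.3% to 44.5% in GF libraries. The paper reports a larger share for a typical experiment, as TPM from Salmon. How multimapping reads were treated in the counts used here is not given, so these shares are not a measure of purity. All 7 stromal and endothelial markers together stayed between 0.259 and 2.87 CPM, that is counts scaled to a common library size. Goblet markers summed to 8116 to 18692 CPM and stem and cycling markers to 2300 to 5321 CPM, so markers of other crypt cells were also found. The paper states that its datasets hold male and female mice, without the sex of each mouse. SPF zinc replicate 1 stood apart with 6228 counts of Xist against at most 34 in any other library. Whether this library came from a mouse of another sex or from a swapped sample was not tested. The called results of members and those of Chac1 that involve it are therefore given with and without it. Of the other genes, most but not all such results are given both ways. Leaving it out changed the call of no member besides Chac1.

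Levels are CPM after TMM scaling, which corrects for the part of a library taken up by a few very abundant genes. The TMM factors were 0.522 to 0.834 in GF libraries and 0.996 to 1.489 in all others. When libraries were scaled by their totals only, the median of all genes in GF against SPF or ABX mice moved to between -1.05 and -0.61 on the log2 scale, so that changes in GF mice are relative to the bulk of the genes. By library totals, Chac1 and Trib3 were the 2 members that stayed higher in GF mice in all 4 comparisons with SPF or ABX mice, and Atf3 stayed lower in all 4. For the other members these values are given beside the called differences in GF mice. Values not called under TMM but called lower by library totals are given with the genes below, and were in addition those of Psat1 against SPF mice on zinc (-0.62, adjusted p = 0.0374, edgeR) and, as a description, on Milli-Q of Sesn2 against SPF and ABX mice (-0.86 and -0.84), of Ppp1r15a against ABX mice (-0.92) and of Atf3 against both (-2.53 and -2.60). Comparisons that hold the GF libraries on Milli-Q share them with the choice of the set and are not independent of it, so members are given no p-value in GF against ABX mice on Milli-Q, and the zinc effect in GF mice carries that limit. In bulk samples, fewer cells of a type and less RNA per cell cannot be told apart.

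Atf4 with its partner proteins binds a short composite element that is written here as TGATGNAA. This element was searched on both strands of the 500 bases before the GENCODE canonical start of each gene in GRCm39. Since such elements are part of how genes come to be known as Atf4 targets, their share among members named as targets is a description and not independent of the choice. It was found before 4 of the 10 members (40%), against 6.8% of 21627 protein-coding genes of the table and 4.81% of 11972 protein-coding genes tested. The 4 windows, of 30 bases on the strand of the gene with the element in capitals, all carry it in the reverse orientation, TTNCATCA.
Chac1, chr2:119181519-119181548, plus strand: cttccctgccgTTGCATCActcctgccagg
Ddit3, chr10:127126350-127126379, plus strand: gttgccaaacaTTGCATCAtccccgccccc
Atf3, chr1:190915622-190915651, minus strand: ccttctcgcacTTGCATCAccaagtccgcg
Sesn2, chr4:132238053-132238082, minus strand: gtgaagtcccgTTTCATCAcgcagccctaa

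In Chac1, Ddit3 and Atf3 the 8 bases of the element were identical, and Sesn2 differed in the free position. The element began 103 bases before the canonical start of Atf3, 159 before that of Chac1, 199 before that of Ddit3 and 256 before that of Sesn2. The windows of Chac1 and Ddit3 overlapped an annotated exon, that of Atf3 lay inside the annotated gene but outside its exons, and that of Sesn2 lay upstream of the gene. The letters were not present in the windows of Atf4, Trib3, Asns, Psat1, Phgdh and Ppp1r15a. A match is a stretch of letters and was not tested for binding.

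Chac1 (ENSMUSG00000027313, chr2:119180757-119184866, plus strand) encodes a gamma-glutamyl cyclotransferase that breaks down glutathione, and it is among the most strongly induced genes of the pathway. In SPF mice on Milli-Q, Chac1 was at 3.13, 2.04 and 1.06 CPM in the 3 libraries. In ABX mice on Milli-Q it was at 1.05, 2.16, 1.58 and 0.973 CPM, and in ABX mice on zinc at 2.42, 3.09, 1.62 and 0.653 CPM. Levels of a few CPM or less were thus the rule in mice with a microbiota and in mice with a depleted microbiota.

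In GF mice on Milli-Q, Chac1 reached 16.5, 12.6 and 28.5 CPM, all above every SPF and ABX library. In GF mice on zinc it was at 21.5, 7.21, 7.08 and 17.2 CPM. The exception outside GF mice was SPF mice on zinc, where replicate 1, the library with Xist counts, stood at 9.05 CPM while the others were at 1.35 and 0.521 CPM. This single SPF library lay above the 2 lowest GF zinc libraries, so those groups overlapped.

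By the fitted fold change, Chac1 was 9.42-fold higher in GF than in SPF mice on Milli-Q (log2 fold change 3.24, SE 0.66) and 13.5-fold higher than in ABX mice on Milli-Q (3.75, SE 0.61). On zinc it was 3.64-fold higher in GF than in SPF mice (1.86, SE 0.62) and 6.6-fold higher than in ABX mice (2.72, SE 0.58). Without SPF zinc replicate 1 the value against SPF mice on zinc was 3.78. By library totals the log2 difference on Milli-Q was 2.30 against SPF and 2.73 against ABX mice, so the direction did not depend on the scaling. In the comparisons without GF libraries Chac1 could be tested, and it passed in none of the 4, with adjusted p-values (edgeR, all genes) of 0.997 for zinc in SPF, 0.618 for zinc in ABX, 0.867 for ABX against SPF on Milli-Q and 0.417 for ABX against SPF on zinc. Its log2 fold change for zinc in SPF mice, 0.81, became -1.11 without SPF zinc replicate 1, and that for ABX against SPF on zinc, -0.86, became 1.06.

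**Figure D1:**
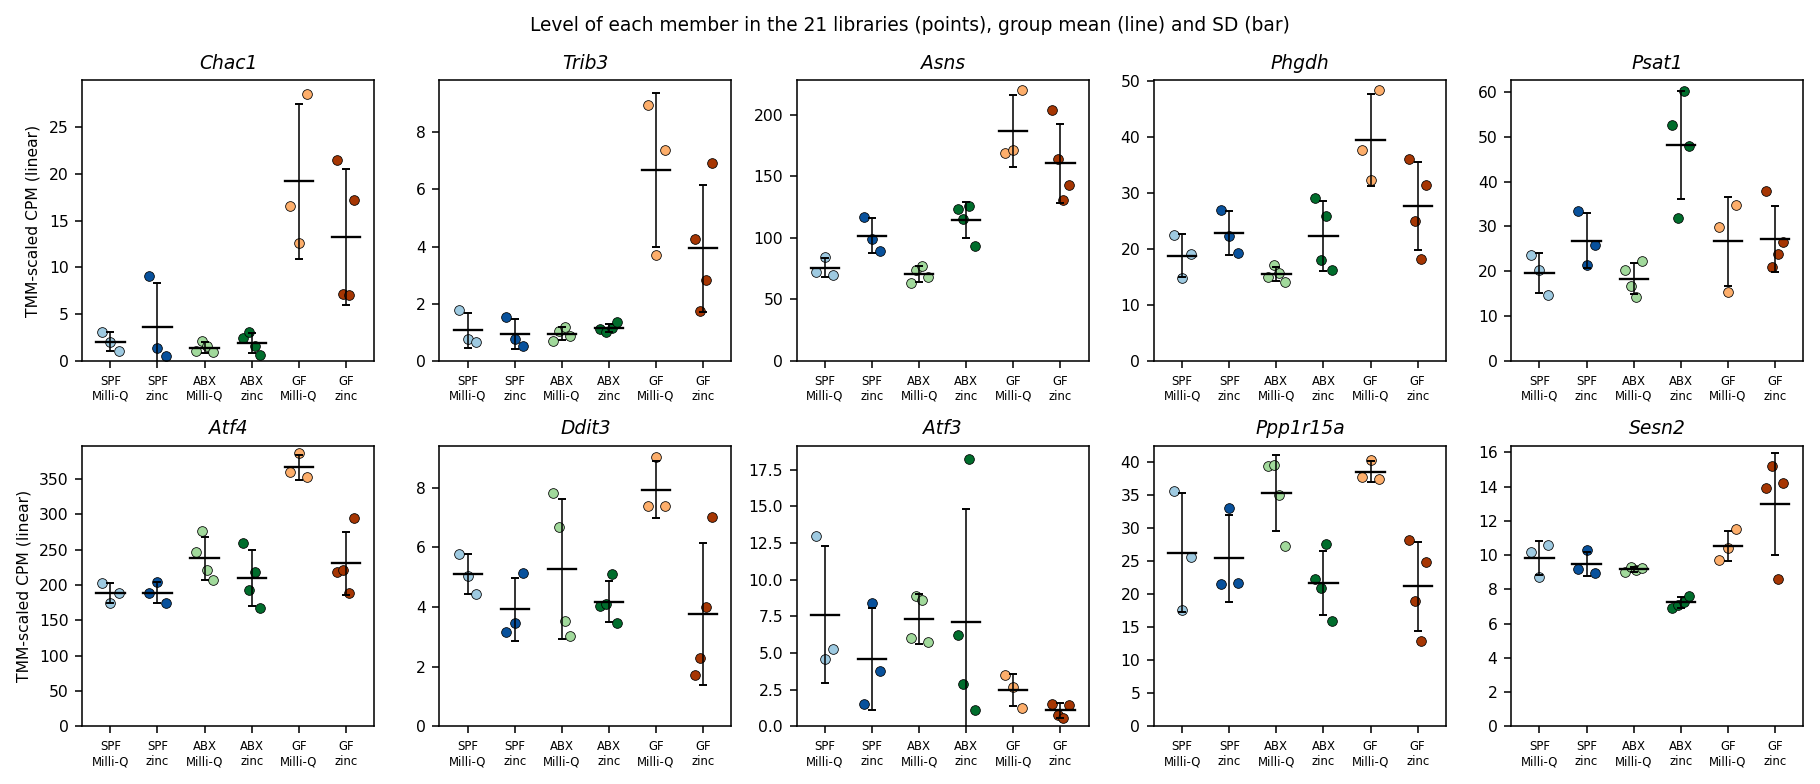
Level of the 10 genes in the 21 libraries, as TMM-scaled CPM on linear axes that start at 0, with a point for each library, a line at the group mean and a bar of 1 SD. Chac1, Trib3 and Asns sit highest in the GF groups, Psat1 in ABX mice on zinc and Sesn2 in GF mice on zinc, while Atf3 is lowest in the GF groups.

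Trib3 (ENSMUSG00000032715, chr2:152179337-152191958, minus strand) is a pseudokinase that is induced by Atf4 and Ddit3 and dampens Atf4 activity, and over the 21 libraries its levels were the most like those of Chac1 among the members. It was at 1.77, 0.766 and 0.677 CPM in SPF mice on Milli-Q and at 1.55, 0.782 and 0.521 CPM in SPF mice on zinc. The 8 ABX libraries lay between 0.701 and 1.37 CPM. In GF mice Trib3 was at 8.94, 3.70 and 7.39 CPM on Milli-Q and at 4.26, 1.75, 2.83 and 6.91 CPM on zinc. On either water, every GF library was above every SPF and ABX library on the same water.

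In the GF and SPF libraries on zinc, Trib3 was 4.15-fold higher in GF mice (log2 fold change 2.05, SE 0.48, adjusted p = 0.0149, edgeR, n = 4 and 3). These libraries exclude those on Milli-Q, but Chac1 in GF libraries led to the set, so the test is not fully independent of the choice. Without SPF zinc replicate 1, the library with Xist counts, the value was 2.57 (adjusted p = 0.0182, edgeR). The call was lost when SPF zinc replicate 2 or 3 was left out, with values from 1.60 to 2.57 and adjusted p-values up to 0.109 over the 7 libraries left out in turn. On zinc Trib3 was also higher in GF than in ABX mice (1.75, SE 0.42, adjusted p = 0.00744, edgeR), a call that held without any of the 8 libraries. The differences on Milli-Q were 2.67 against SPF mice, without a test, and 2.80 against ABX mice, likewise without a test. By library totals, Trib3 was still higher in GF mice, by 1.75 and 1.49 against SPF mice on Milli-Q and zinc and by 1.79 and 1.04 against ABX mice. All these rest on 7 to 69 counts in a library.

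Asns (ENSMUSG00000029752, chr6:7671667-7728461, minus strand) encodes the asparagine synthetase and was among the most abundant members. Its levels were 72.2, 84.8 and 70.2 CPM in SPF mice and 63.1, 73.7, 77.5 and 67.8 CPM in ABX mice on Milli-Q. On zinc they were 117, 99.4 and 89.2 CPM in SPF mice and 123, 115, 126 and 93.7 CPM in ABX mice. In GF mice the libraries stood at 169, 171 and 220 CPM on Milli-Q and at 204, 164, 131 and 143 CPM on zinc. The zinc libraries of SPF and of ABX mice lay entirely above those on Milli-Q, whereas in GF mice the waters overlapped.

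Asns rose with zinc in ABX mice by 0.70 (SE 0.14, adjusted p = 0.00268, edgeR), a 1.62-fold change that held without any library. In SPF mice the zinc libraries were 1.34-fold higher without passing the test (0.43, SE 0.16, adjusted p = 0.736, edgeR), and in GF mice the value was -0.22 (SE 0.15, adjusted p = 0.346, edgeR). The zinc effect in GF minus that in ABX mice was -0.92 (SE 0.21, adjusted p = 0.0535, edgeR), with the GF libraries on Milli-Q in it. On zinc, Asns was higher in GF than in SPF mice by 0.65 (SE 0.15, adjusted p = 0.0158, edgeR) and than in ABX mice by 0.49 (SE 0.14, adjusted p = 0.0249, edgeR). Without SPF zinc replicate 1 the first value was 0.76 (adjusted p = 0.0228, edgeR). This call was lost without GF zinc replicate 1 or SPF zinc replicate 2 or 3, and the second without any of 4 libraries, and by library totals the values became 0.01 and -0.29. On Milli-Q, Asns was 2.47-fold higher in GF than in SPF and 2.65-fold higher than in ABX mice, both without a test (1.30 and 1.40 on the log2 scale), which became 0.34 and 0.38 by library totals.

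Phgdh (ENSMUSG00000053398, chr3:98220484-98255047, minus strand) and Psat1 (ENSMUSG00000024640, chr19:15882039-15924701, minus strand) encode successive enzymes of serine synthesis from a glycolytic intermediate. Phgdh was at 22.5, 14.8 and 19.1 CPM in SPF and at 15.0, 17.1, 15.7 and 14.2 CPM in ABX mice on Milli-Q, against 37.7, 32.4 and 48.5 CPM in GF mice. On zinc its 3 contexts overlapped, at 19.3 to 27.0 CPM in SPF, 16.3 to 29.2 CPM in ABX and 18.2 to 36.2 CPM in GF mice. The untested differences of GF from ABX and SPF mice on Milli-Q were 1.36 (SE 0.22) and 1.08 (SE 0.23), or 0.32 and 0.14 by library totals. On zinc it was not called in GF against SPF (0.27, SE 0.22, adjusted p = 0.483, edgeR) or against ABX mice (0.31, SE 0.20, adjusted p = 0.340, edgeR). By library totals these values turned to -0.36 and -0.44, and the latter passed as lower in GF mice (adjusted p = 0.0454, edgeR).

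Psat1 was highest in ABX mice on zinc, at 52.7, 31.8, 60.3 and 48.0 CPM, against 20.2, 16.8, 14.3 and 22.3 CPM in ABX mice on Milli-Q. These groups did not overlap, and Psat1 rose with zinc in ABX mice by 1.39 (SE 0.23, 2.61-fold, adjusted p = 0.00128, edgeR), whichever library was left out. In SPF mice zinc moved it from 19.6 ± 4.42 to 26.9 ± 6.08 CPM (SD, n = 3 each), which was not called (0.46, SE 0.27, adjusted p = 0.997, edgeR). In GF mice it was at 26.7 ± 9.95 CPM on Milli-Q (SD, n = 3) and 27.3 ± 7.35 CPM on zinc (SD, n = 4). On zinc it was higher in ABX than in SPF mice (0.84, SE 0.25, adjusted p = 0.0376, edgeR) and lower in GF than in ABX mice (-0.83, SE 0.23, adjusted p = 0.0203, edgeR). Without SPF zinc replicate 1 the former value was 1.03 (adjusted p = 0.0442, edgeR). This call was lost without any of 5 of the 7 libraries and the latter without ABX zinc replicate 3 or GF zinc replicate 2. By library totals the former value was 0.97 and the latter -1.59 (adjusted p = 0.0262 and 1.03e-05, edgeR). The differences of the zinc effect in ABX from that in SPF mice (0.93, SE 0.35, adjusted p = 0.180, edgeR) and in GF from that in ABX mice (-1.38, SE 0.34, adjusted p = 0.0681, edgeR) did not pass.

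Atf4 (ENSMUSG00000042406, chr15:80139372-80141745, plus strand) was the most abundant member, also per length, with a mean over the libraries of 110 CPM per kilobase of its longest annotated transcript, against 15.3 for Asns, 12.3 for Phgdh and 0.917 to 9.96 for the others. It was at 203, 174 and 188 CPM in SPF and at 247, 276, 221 and 207 CPM in ABX mice on Milli-Q, and at 360, 386 and 353 CPM in GF mice on Milli-Q. On zinc the GF libraries were at 218, 221, 189 and 294 CPM, and overlapped with SPF mice, at 189, 204 and 175 CPM, and with ABX mice, at 259, 193, 219 and 167 CPM. The GF libraries on Milli-Q were therefore above all other 18 libraries.

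With zinc in GF mice Atf4 fell by 0.67 (SE 0.15, adjusted p = 0.0129, edgeR), to 230 ± 44.7 from 366 ± 17.2 CPM (SD, n = 4 and 3), and the groups did not overlap. The GF libraries on Milli-Q also took part in the choice of the set. The call was lost without GF Milli-Q replicate 2 or GF zinc replicate 3, and by library totals (-0.51, adjusted p = 0.117, edgeR). On zinc the levels in GF mice were not called against SPF (0.28, SE 0.15, adjusted p = 0.271, edgeR) or ABX mice (0.14, SE 0.14, adjusted p = 0.561, edgeR), and by library totals they were -0.32 and -0.58, the latter called lower in GF mice (adjusted p = 0.0077, edgeR). On Milli-Q the differences were 0.96 against SPF mice, without a test, and 0.62 against ABX mice, also without a test, but by library totals they were 0.01 and -0.42. The direction of the Atf4 mRNA in GF against other mice thus rests on the scaling on either water.

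Ddit3 (ENSMUSG00000025408, chr10:127124268-127132163, plus strand) encodes the transcription factor Chop. Ddit3 was at 7.39, 9.03 and 7.39 CPM in GF mice on Milli-Q and at 1.74, 2.30, 4.01 and 7.02 CPM on zinc, without overlap and without passing the test (-1.03, SE 0.36, adjusted p = 0.0649, edgeR). Its other groups lay between 3.02 and 7.81 CPM, and Ddit3 was called in none of the tested comparisons. Ddit3 overlaps Mars1, Mbd6 and Gm4189 on the opposite strand, and Gm20492, Gm66222 and a further entry named Ddit3 on its own strand. Whether counting used the strand is not given in the sources, and the strand could not separate the entries on the same strand. Reads of these genes thus cannot be told apart with certainty.

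Ppp1r15a (ENSMUSG00000040435, chr7:45172340-45175692, minus strand) encodes Gadd34, the phosphatase subunit that restores eIF2alpha. It was at 37.7, 40.3 and 37.4 CPM in GF mice on Milli-Q against 28.1, 18.9, 12.9 and 24.9 CPM on zinc. It fell with zinc in GF mice by 0.87 (SE 0.24, adjusted p = 0.0270, edgeR), a comparison that holds the GF libraries on Milli-Q. By library totals this was -0.76 (adjusted p = 0.0632, edgeR). On zinc, GF mice were not called against SPF (-0.28) or ABX mice (-0.05), but by library totals the values were -0.93 and -0.81 (adjusted p = 0.0049 and 0.00354, edgeR). In ABX mice it fell by 0.70 (SE 0.22, adjusted p = 0.0252, edgeR), from 39.3, 39.5, 35 and 27.2 CPM to 22.3, 20.9, 27.6 and 15.9 CPM, which overlapped. These calls were lost without any of 4 of 7 and of 6 of 8 libraries, respectively. In SPF mice it was at 26.3 ± 9.03 CPM on Milli-Q and 25.4 ± 6.56 CPM on zinc (SD, n = 3 each), and the zinc effects in ABX (-0.66, SE 0.33, adjusted p = 0.285, edgeR) and in GF mice (-0.83, SE 0.35, adjusted p = 0.325, edgeR) were not separable from that in SPF mice.

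Atf3 (ENSMUSG00000026628, chr1:190902493-190950241, minus strand) is a transcription factor that is induced by Atf4 and also by many acute stimuli. It was at 3.50, 2.66 and 1.29 CPM in GF mice on Milli-Q and at 1.55, 0.765, 0.590 and 1.49 CPM on zinc, while SPF mice on Milli-Q were at 13, 4.60 and 5.27 CPM and ABX mice on Milli-Q at 6.01, 8.92, 8.64 and 5.74 CPM. On zinc, SPF libraries were at 1.55, 8.39 and 3.80 CPM and ABX libraries at 6.26, 2.88, 18.2 and 1.11 CPM. Atf3 was lower in GF than in ABX mice on zinc (-2.72, SE 0.70, adjusted p = 0.0118, edgeR), with overlapping groups, and without ABX zinc replicate 3, the library at 18.2 CPM, the value was -1.70 and the call was lost. It was not called in GF against SPF mice on zinc (-2.10, SE 0.75, adjusted p = 0.0893, edgeR), where library totals gave -2.75 (adjusted p = 0.00374, edgeR). In GF against ABX mice, Atf3 moved beside immediate early genes, which respond to acute stimuli and tissue handling. Of the 10 immediate early genes fixed for the purpose, 5 were called lower in GF than in ABX mice on zinc (13.2% of all genes called). As a description, 6 were lower on Milli-Q (22.2% of all genes called). On zinc and Milli-Q, Fosb was at -1.92 and -2.21, Fos at -1.31 and -1.16, Dusp1 at -1.22 and -1.40 and Egr1 at -1.33 and -0.99. Against SPF mice, 1 of the 10 was called lower on zinc (5.85% of all genes called). As a description, 2 were lower than in SPF mice on Milli-Q (24.2% of all genes called). The summed level of these 10 genes was 360 to 571 CPM in GF zinc, 575 to 878 CPM in GF Milli-Q, 532 to 1718 CPM in ABX zinc, 1138 to 1605 CPM in ABX Milli-Q, 633 to 1128 CPM in SPF zinc and 768 to 1317 CPM in SPF Milli-Q libraries. Their part in the difference in Atf3 was not tested.

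Sesn2 (ENSMUSG00000028893, chr4:132219335-132237815, minus strand) encodes a sestrin that restrains mTORC1 when leucine is low. Of the members it varied least, from 6.94 to 15.2 CPM over all libraries. On zinc it was higher in GF than in ABX mice by 0.84 (SE 0.16, adjusted p = 0.00101, edgeR), at 13.9, 15.2, 8.61 and 14.2 CPM against 6.94, 7.10, 7.28 and 7.64 CPM. The groups did not overlap and the call held without any library, but by library totals the value was 0.09 (adjusted p = 0.683, edgeR). Sesn2 was not called in GF against SPF mice on zinc (0.45, SE 0.17, adjusted p = 0.104, edgeR), and was at -0.17 there by library totals.

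**Figure D2:**
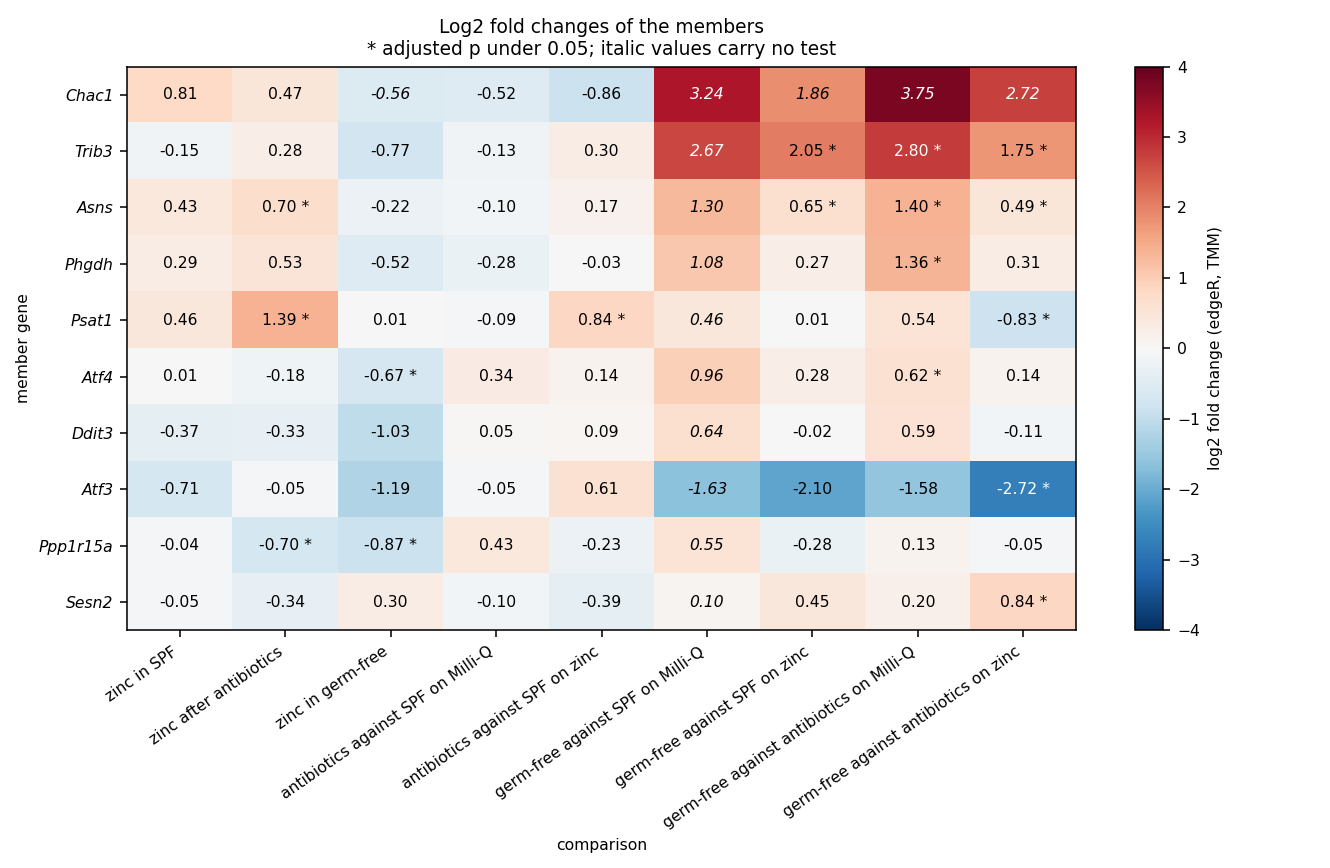
Log2 fold changes (colour and numbers) of the 10 genes, in rows, in the 9 comparisons of a pair of groups, in columns, from edgeR with TMM factors. A star marks an adjusted p under 0.05 over all 13070 genes and italic values carry no test, and Chac1 and Trib3 have the largest positive values in the 4 columns of GF against SPF or ABX mice while Atf3 is negative in all 4. Columns with GF mice on Milli-Q are not independent of the choice of the genes. Stars in the column of GF against ABX mice on Milli-Q are a description and are not read as tests.

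Considered by comparison, zinc in SPF mice changed 0 of the 10 members against 0.138% of all genes tested, and ABX against SPF mice on Milli-Q 0 against 0.199%. In each of these 1 member had an unadjusted p under 0.05, and DESeq2 called 0. Zinc in ABX mice changed 3 of 10 (Asns and Psat1 up, Ppp1r15a down) against 21.7% of all genes, a share near the background. Zinc in GF mice changed 2 of 10, both downward (Atf4 and Ppp1r15a), against 11.4%, and the median of the members was -0.61 against -0.02 for all genes. Zinc in GF mice shares the GF Milli-Q libraries with the choice of the set. ABX against SPF mice on zinc gave 1 of 10 (Psat1) against 8.97%.

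For GF against SPF mice on zinc, the comparison free of the libraries on Milli-Q, 2 of the 9 members besides Chac1 were called (Trib3 and Asns, upward) against 5.85% of all genes, and the median of all 10 was 0.28 against 0.00. By library totals the called members there were 1 up and 3 down. For GF against ABX mice on zinc, 5 of these 9 were called, Trib3, Asns and Sesn2 upward and Atf3 and Psat1 downward, against 13.2%. By library totals the split including Chac1 was 2 up and 5 down, from 4 up and 2 down. On Milli-Q, as a description, 5 members including Chac1 passed the threshold upward against ABX mice (background 22.2%, 3 up and 3 down by library totals) and 5 against SPF mice (background 24.2%, 2 up and 2 down by library totals). The last count used the contrast that chose the set and the other the same GF libraries, and nothing is read from either.

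Whether zinc acted differently by context was tested directly. No member passed for ABX against SPF mice, with 0% of all genes called, 1 member at an unadjusted p under 0.05 and 0 by DESeq2. None passed for GF against SPF mice, with 0% of all genes, 4 members at an unadjusted p under 0.05 and 0 by DESeq2. None passed for GF against ABX mice, with 0.207% of all genes, 5 members at an unadjusted p under 0.05, and 3 by DESeq2 (Asns, Phgdh and Psat1, all lower). Both contrasts with GF mice hold the GF libraries on Milli-Q.

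Whether the other members follow Chac1 was also asked inside the groups, from mouse to mouse, which the difference between groups did not use. Each library was expressed as its deviation from its group mean in log2 CPM, and over the 21 libraries the deviations of Chac1 were compared with those of the 9 other members. Asns gave Pearson's r = 0.67 (permutation p = 0.00428, adjusted over the 9 members 0.0232) and Spearman's rho = 0.68 (permutation p = 0.00735, adjusted 0.0412). Trib3 gave r = 0.65 (permutation p = 0.00919, adjusted 0.0276) and rho = 0.65 (permutation p = 0.0118, adjusted 0.0412). Phgdh gave r = 0.63 (permutation p = 0.00516, adjusted 0.0232) and rho = 0.63 (permutation p = 0.0137, adjusted 0.0412). Mice with more Chac1 than their group mates thus also had more of these 3 mRNAs.

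For the other 6 members the relation did not pass, with r = 0.38 for Atf4 (adjusted permutation p = 0.217), 0.36 for Psat1 (0.240), 0.31 for Ppp1r15a (0.372), 0.12 for Sesn2 (0.853), 0.06 for Atf3 (0.858) and -0.07 for Ddit3 (0.853). Over all 13069 other genes the median r was 0.00, with quartiles at -0.15 and 0.17. The 2 libraries farthest from the median in Chac1 were SPF zinc replicates 1 and 3. Without them r was 0.64 for Asns, 0.54 for Trib3 and 0.66 for Phgdh over 19 libraries, and the adjusted permutation p-values were 0.110, 0.122 and 0.110, so the calls rest on these libraries while r moved by little for Asns and Phgdh. Deviations by library totals gave r = 0.51, 0.60 and 0.56 (adjusted permutation p-values 0.0939, 0.0571 and 0.0571). The share of Defa genes and the TMM factor of a library were not entered as covariates.

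**Figure D3:**
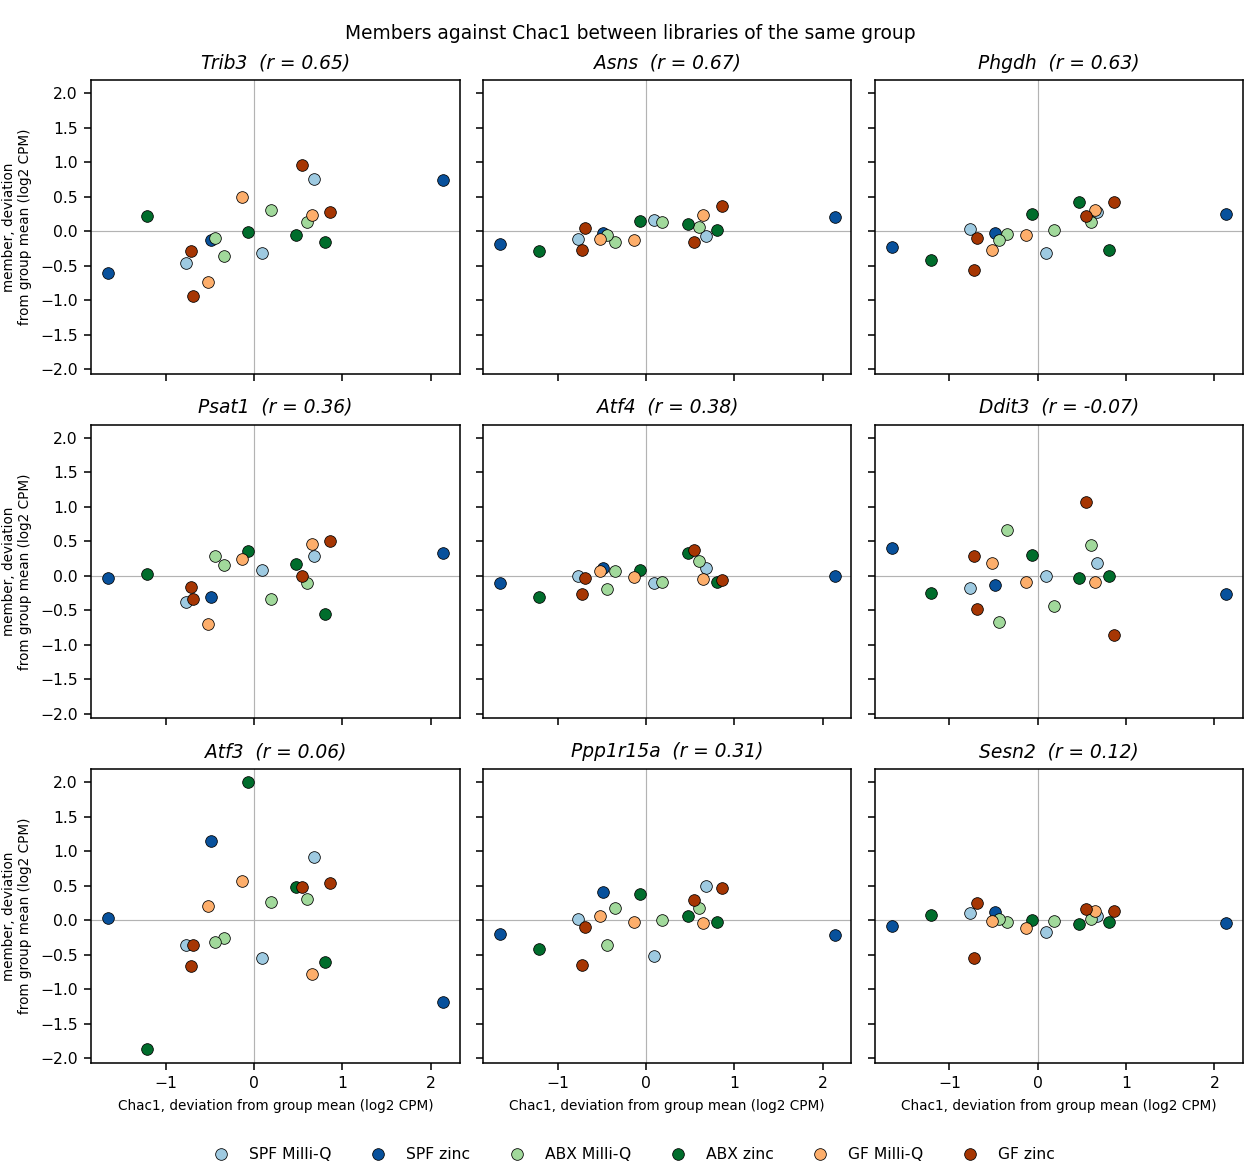
Deviation of Chac1 from its group mean (horizontal axis, log2 CPM) against that of each other member (vertical axis, log2 CPM), with a point per library, coloured by group, for 21 libraries. Points run from lower left to upper right for Trib3 (r = 0.65), Asns (0.67) and Phgdh (0.63) and form no slope for Ddit3 (-0.07) and Atf3 (0.06), and the outermost points on the horizontal axis are SPF zinc replicates 1 and 3.

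As a description without a test, the genes whose log2 CPM over the 21 libraries was most like that of Chac1, among 9354 genes with a mean of at least 5 CPM, were Dhrs7, Gpt2 and Defa39 (r = 0.91 each) and Guca2b and Fth1 (0.90 each). Gpt2, a mitochondrial alanine transaminase, went from means of 22.6 and 20.9 CPM in SPF and ABX mice on Milli-Q to 49.9 CPM in GF mice. Fth1 encodes the ferritin heavy chain and Guca2b uroguanylin. Trib3, below the limit on the mean, had r = 0.90, Asns 0.84 (rank 105) and Phgdh 0.82 (rank 164), while Atf4 had 0.63 and Atf3 -0.54. These values span the difference between groups. Over deviations from group means the closest genes were Fut1 (0.81), Tex261, Pja1 and Nsmce3 (0.72 each) and Ube2e2 (0.71), with Asns at rank 14 and Phgdh at rank 28.

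Other genes of the pathway were described from lists that hold none of the 10 members. The counts are to be read against the shares of all genes called. These were 21.7% for zinc in ABX mice, 11.4% for zinc in GF mice and 8.97% for ABX against SPF mice on zinc. For GF mice they were 5.85% against SPF and 13.2% against ABX mice on zinc, and 24.2% and 22.2% on Milli-Q. All counts in GF against other mice are under TMM and relative to the bulk of the genes. By library totals, 48.3% to 79.1% of all genes were called in these comparisons and the counts of the lists shifted toward lower in GF mice. The values in GF against SPF or ABX mice on Milli-Q are a description, and the counts called there are not read as tests.

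The cytosolic tRNA synthetases charge tRNAs with amino acids. In GF mice on Milli-Q, 10 of 12 were called higher than in ABX mice (median 0.61, 22.2% of all genes called), led by Cars1 (1.15), Aars1 (1.05) and Gars1 (0.85). Against SPF mice the count was also 10 (median 0.85), led by Cars1 (1.41), Aars1 (1.01) and Yars1 (0.96). By library totals none was higher and 6 and 4 were lower, with medians of -0.44 and -0.12, which lay 0.62 and 0.87 above the median of all genes. On zinc, 2 of 12 were higher in GF than in SPF mice (Sars1 by 0.55 and Gars1 by 0.46, 5.85% of all genes called), leaving out SPF zinc replicate 1 ended the call of Gars1 (0.51, adjusted p = 0.0504, edgeR), and against ABX mice the median was -0.07. With zinc, 7 of 12 rose in ABX mice (21.7% of all genes called), among them Nars1 (0.60), Iars1 (0.59) and Mars1 (0.56), and by library totals none of these 7 passed (0.31 to 0.43). In GF mice 2 fell with zinc, Cars1 by 1.14 and Aars1 by 0.52. The zinc effect itself was lower in GF than in ABX mice for Aars1 (-1.07, adjusted p = 0.0233, edgeR) and Gars1 (-0.84, adjusted p = 0.0336, edgeR), which did not pass by library totals (-0.78 and -0.54).

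Among the enzymes, Mthfd2, a mitochondrial folate enzyme that is a well known Atf4 target, was higher in GF than in SPF mice on zinc (0.54, adjusted p = 0.0338, edgeR), with 0.61 without SPF zinc replicate 1 and -0.10 by library totals. On Milli-Q, as a description, it was higher by 1.40 against ABX mice and by 1.46 against SPF mice, or by 0.36 and 0.49 by library totals. Of the 7 serine, glycine and one-carbon enzymes tested, 3 were called higher in GF than in ABX mice on Milli-Q (Mthfd2, Psph 0.71 and Shmt2 0.56), against SPF mice the values were 0.85 for Shmt2 and 0.69 for Psph, and on zinc 2 were lower than in ABX mice (Mthfd1l -0.56 and Mthfd1 -0.42, median of the list -0.11). With zinc 3 of 7 rose in ABX mice (Psph 0.78, Mthfd2 0.58 and Mthfd1 0.38, 21.7% of all genes called) and 2 fell in GF mice (Shmt2 by 0.57 and Mthfd2 by 0.45, 11.4% of all genes called). The zinc effect on Mthfd2 was lower in GF than in ABX mice (-1.03, adjusted p = 0.0295, edgeR), which did not pass by library totals (-0.75).

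Of 8 other amino acid enzymes, Gpt2 was the one called in GF against SPF mice on zinc (0.68, adjusted p = 0.0180, edgeR), with 0.76 without SPF zinc replicate 1 and 0.05 by library totals. Pycr1, of proline synthesis, and Gpt2 were called against ABX mice on zinc (0.78 and 0.80, 13.2% of all genes called), where library totals gave 0.02 and 0.04. These together with Pck2 were called against ABX mice on Milli-Q (1.41, 1.25 and 0.78), and were at 1.44, 1.14 and 0.77 against SPF mice. Cth, of cysteine synthesis, and Got1 rose with zinc in ABX mice by 0.58 and 0.44, and with zinc in GF mice Pycr1 fell by 0.57.

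Amino acid transporters were called higher in GF than in ABX mice in 5 of 11 cases on either water (13.2% of all genes called on zinc and 22.2% on Milli-Q). Slc43a1 (1.51), Slc6a9 (0.84) and Slc7a5 (0.72) led on zinc, and Slc6a9 (1.26), Slc43a1 (1.10) and Slc3a2 (1.02) on Milli-Q. By library totals the counts were 1 higher and 5 lower on zinc, Slc43a1 being higher (0.75), and 5 lower with none higher on Milli-Q. Against SPF mice on Milli-Q, Slc6a9 (1.46), Slc3a2 (1.14) and Slc43a1 (1.11) had the largest values. Slc7a5 and Slc3a2, which together form the large neutral amino acid exchanger, were the 2 of 11 called higher in GF than in SPF mice on zinc (0.72, adjusted p = 0.0109, and 0.64, adjusted p = 0.0400, edgeR), with 0.81 and 0.76 without SPF zinc replicate 1 and 0.10 and 0.01 by library totals. With zinc in GF mice 2 rose (Slc7a1 0.62 and Slc38a2 0.58) and 2 fell (Slc6a9 by 1.03 and Slc1a5 by 0.66), and with zinc in ABX mice 1 rose (Slc7a1 0.42) and 2 fell (Slc1a5 by 0.67 and Slc43a1 by 0.56).

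Among Atf4 partners and other induced regulators, of which 12 of 14 were tested, Eif4ebp1, which encodes a brake on cap-dependent translation, was the 1 called in GF against SPF mice on zinc (0.88, adjusted p = 0.0168, edgeR), with 1.18 without SPF zinc replicate 1 and 0.28 by library totals. Against ABX mice on zinc 5 of 12 were higher and 1 lower (13.2% of all genes called). The largest values were those of Gdf15 (-1.39), a secreted stress cytokine, Ddit4 (1.34), an inhibitor of mTORC1, and Nupr1 (1.23), a small stress-induced chromatin protein. By library totals 2 were higher there, Ddit4 (0.61) and Nupr1 (0.53), and 4 lower. On Milli-Q, Nupr1 (2.11), Eif4ebp1 (1.95) and Ddit4 (1.36) were the 3 called against ABX mice, and Nupr1 and Eif4ebp1 were also called higher by library totals (1.08 and 0.91). Against SPF mice on Milli-Q the values were -5.00 for Stc2, at means of 0.0987 and 2.99 CPM, 2.01 for Nupr1 and 1.75 for Eif4ebp1. With zinc in GF mice 3 fell, Gdf15 by 1.64, Nupr1 by 1.27 and Eif4ebp1 by 0.68, and with zinc in ABX mice 1 fell, Bbc3 by 1.36.

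Upstream, the list of eIF2alpha kinases, phosphatase subunits and eIF2B subunits had 1 of 12 called higher in GF than in SPF mice on zinc (Eif2b1 0.49, and -0.11 by library totals). Against ABX mice on Milli-Q 4 were higher and 1 lower (22.2% of all genes called), and by library totals 10 were lower. The largest values were those of Eif2b4 (0.65), Eif2b3 (0.60) and Eif2b5 (0.55), which were at 1.02, 0.90 and 0.55 against SPF mice. Eif2s1 was lower in GF than in ABX mice on zinc (-0.54). With zinc Eif2s1 (0.71) and Eif2b5 (0.51) rose in ABX mice and Eif2b4 fell by 0.56 in GF mice.

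In the Xbp1 and Atf6 arms of the unfolded protein response, 7 of 14 rose with zinc in ABX mice (21.7% of all genes called), led by Sdf2l1 (0.82), Dnajb9 (0.67) and Hspa5 (0.61), and by library totals 1 of 14 passed (Sdf2l1, 0.63). With zinc in GF mice 1 rose (Dnajb9, 1.06). In GF against SPF mice on zinc, 1 of 14 was called, Herpud1 (1.06, adjusted p = 0.00473, edgeR), which serves the degradation of misfolded proteins and is also a known Atf4 target. It was at 1.04 without SPF zinc replicate 1 and at 0.41 by library totals (adjusted p = 0.0587, edgeR). Against ABX mice on zinc 4 were higher and 6 lower (13.2% of all genes called), led by Herpud1 (1.18), Sdf2l1 (-0.82) and Pdia4 (-0.82). On Milli-Q 4 were higher (22.2% of all genes called), led by Herpud1 (1.27), Sec61b (0.58) and Dnajc3 (0.52). Against SPF mice on Milli-Q, Herpud1 was at 0.81 and Sec61b at 0.51.

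For glutathione, the substrate of Chac1, the median of 8 genes in GF against SPF mice on zinc was -0.05, and on Milli-Q Gclc was at -0.61. With zinc in ABX mice 3 rose (Gclm 1.14, Gsr 0.74 and Gclc 0.48, 21.7% of all genes called), of which Gclm passed by library totals (0.96), and with zinc in GF mice Ggct fell by 0.92. Ggt1 was higher in GF than in ABX mice on zinc (2.54) and Milli-Q (2.58), beside Gsr (-0.55) on zinc and Ggct (0.86) on Milli-Q. Of 6 mitochondrial stress genes 3 rose with zinc in ABX mice (Hspe1 0.70, Hspd1 0.64 and Hspa9 0.40, 21.7% of all genes called), of which Hspe1 passed by library totals (0.53). With zinc in GF mice Clpp fell by 0.76. Clpp was higher in GF mice on Milli-Q (0.78 against ABX and 0.92 against SPF mice), and Hspe1 (-0.71) and Hspd1 (-0.51) were lower in GF than in ABX mice on zinc. Of the immediate early genes, Junb fell by 0.69 with zinc in ABX and Ier2 by 0.87 with zinc in GF mice. Against SPF mice, Zfp36 was at -1.08 in GF mice on zinc, which did not pass when SPF zinc replicate 1 was omitted (-1.22, adjusted p = 0.0514, edgeR), and Fosb and Klf6 were at -1.53 and -1.01 on Milli-Q.

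In ABX against SPF mice on zinc, where 8.97% of all genes were called and 4.29% without SPF zinc replicate 1, 4 of 12 tRNA synthetases were higher, led by Mars1 (0.68), Yars1 (0.56) and Iars1 (0.54), and 2 without that library. Of the eIF2 list 4 of 12 were higher, led by Eif2b3 (0.81), Eif2b1 (0.69) and Eif2s1 (0.63), and 2 without it. Of the mitochondrial genes 4 of 6 were higher, led by Hspd1 (0.66), Hspe1 (0.55) and Clpp (0.50), and without it their adjusted p-values (edgeR) were 0.0610 to 0.0884. Of the unfolded protein response 3 of 14 were higher, Pdia4 (0.85), Hspa5 (0.69) and Sdf2l1 (0.66), and 1 without it (Pdia4). The other calls were Klhl24 (-1.05), Slc43a1 (-1.06) and Gsr (0.66), which held without it, and Ddit4 (-0.75), Mthfd1 (0.43), Cth (0.68) and Ggt1 (-3.10), which did not.

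**Figure D4:**
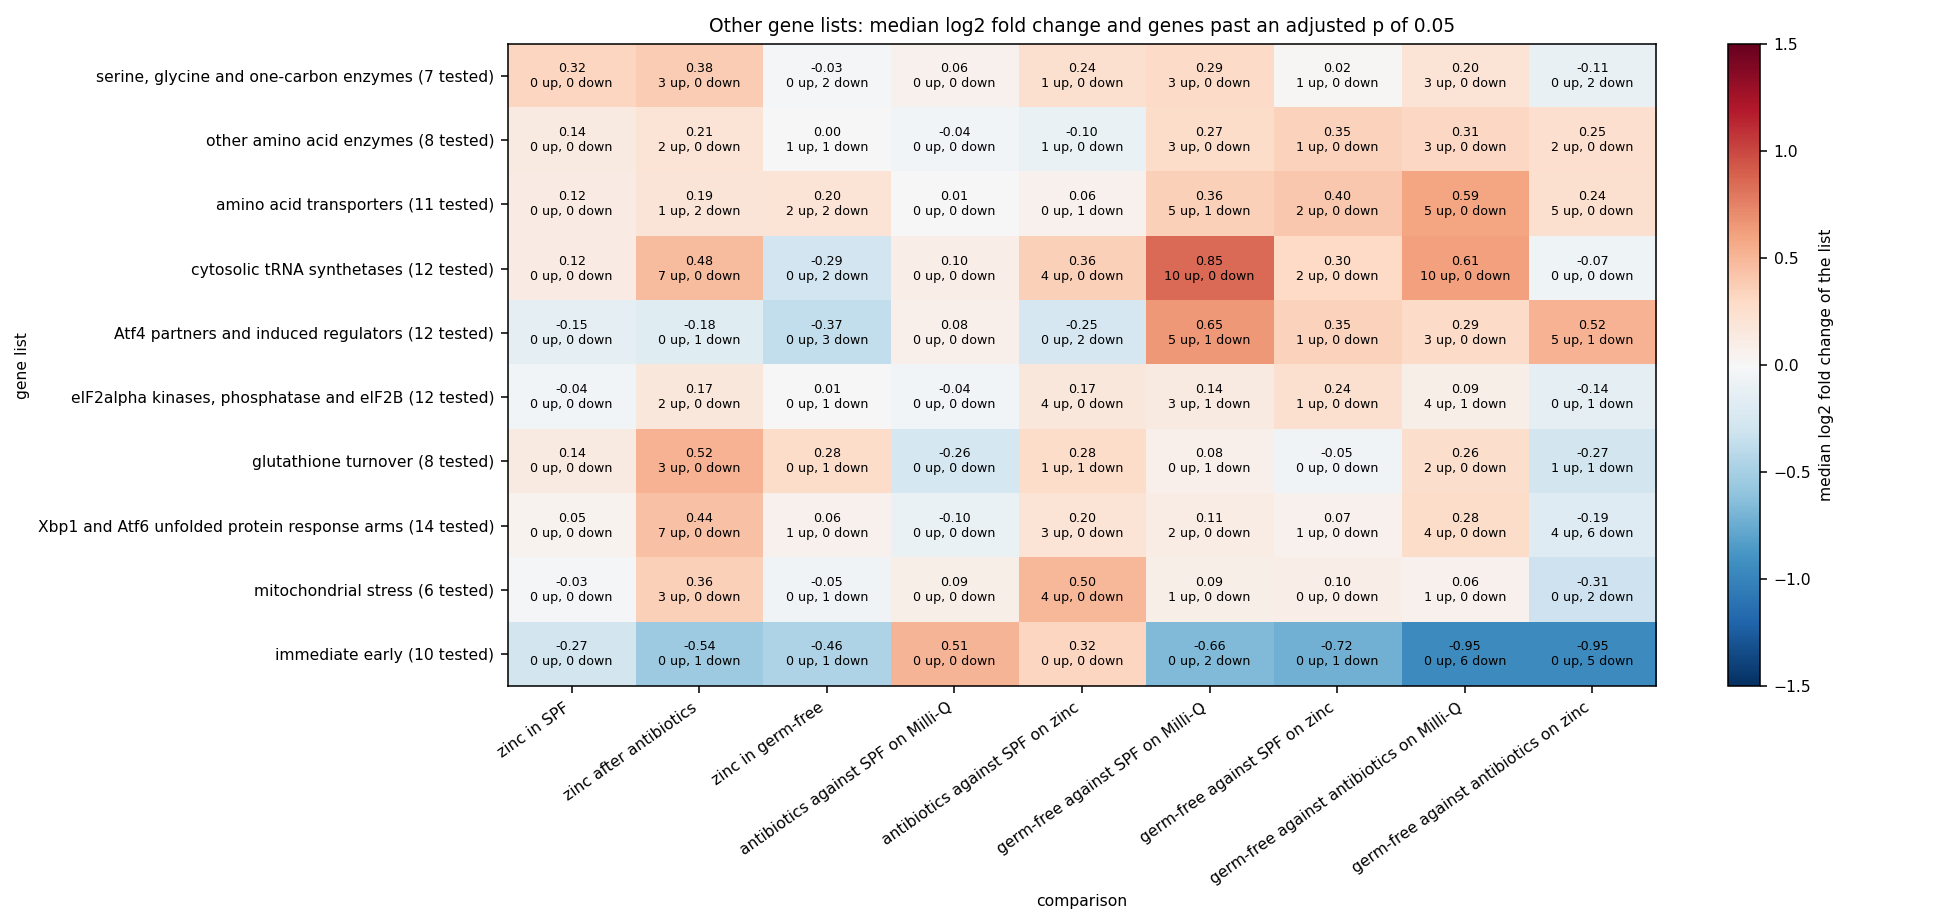
Median log2 fold change (colour and upper number) of 10 gene lists, in rows, in the 9 comparisons of a pair of groups, in columns, with the number of genes past an adjusted p of 0.05 in each direction. The tRNA synthetases stand at 10 up in both GF columns on Milli-Q, which are a description, and at 7 up with zinc after antibiotics. The immediate early genes have 6 and 5 down in GF against ABX mice on Milli-Q and zinc.

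Markers of other cells moved with some of these comparisons. The 6 Paneth markers, all found in each group, were called higher in GF than in SPF mice on zinc in 4 of 6 cases (5.85% of all genes called). Against ABX mice they were higher on either water in 6 of 6 (13.2% of all genes called on zinc and 22.2% on Milli-Q). These counts are under TMM, and the first includes SPF zinc replicate 1. The 6 Paneth markers summed to 544274 to 986471 CPM in GF libraries against 192623 to 421609 CPM in all others. All sums of markers here are TMM-scaled CPM, relative to the bulk of the genes, and were not compared by library totals. The low TMM factors of GF libraries raise these sums, so a higher sum there is not read as more cells. The 8 goblet markers summed to 12719 to 18692 CPM in GF libraries against 8116 to 14427 CPM in all others. Of these, Spink4 was higher in GF than in ABX mice on zinc (0.89), while Zg16, Fcgbp, Clca1 and Agr2 were lower (-1.49 to -0.81). Enteroendocrine markers summed to 55.9 to 79.6 CPM in GF and 70.1 to 192 CPM in the other libraries, and the 8 enterocyte markers to 1033 to 1733 CPM in SPF zinc libraries, 464 to 758 CPM in the other SPF and ABX libraries and 505 to 1991 CPM in GF libraries. Stem and cycling markers summed to 2300 to 4381 CPM in GF and 2917 to 5321 CPM in the other libraries, and tuft markers to 84.4 to 170 CPM and 94.5 to 305 CPM. Immune markers summed to 57.1 to 79.8 CPM in ABX mice on Milli-Q and 6.28 to 64.2 CPM elsewhere, and 3 to 5 of the 7 stromal and endothelial markers were at 0 counts in each group. The part of these cells in the values of Chac1 and the other members was not tested.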

How the data were processed

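Per the labels, mouse Paneth cells were sorted by FACS, RNA was isolated on columns and stranded mRNA libraries were made. The authors deposited raw counts per Ensembl gene for the 21 libraries, without normalisation. The submitters' processing notes name FastQC 0.12.0, STAR 2.7.0a, DESeq2 and mm39, and the counting tool, its strand setting and its treatment of multimapping reads are not given in the sources used here. Groups came from the sample labels, and 0 columns were left unmatched. Members were matched by identifier (GENCODE M39, GRCm39, which matched 54749 of 55414 identifiers).

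Counts were filtered with filterByExpr, scaled by TMM and tested by quasi-likelihood F-tests in edgeR 4.0.16 (R 4.3.3), with all 21 libraries in 1 fit of 6 group coefficients and Benjamini-Hochberg adjustment over 13070 genes at 0.05. SE is that of the fitted log2 fold change. Log2 CPM used a prior count of 2, and correlations 100000 two-sided permutations of Chac1 within groups. Scripts were tested on simulated data. Alternatives were DESeq2 1.42.0, its size factors in edgeR, library totals, no filter, only the groups compared, a replicate block and each library left out. All members, and of each list up to 3 called genes with the largest change per comparison, were named, except that 1 item is not reported here, and others named for contrast were chosen after their values were seen. The members and lists were chosen with earlier results of these data known. Replicate libraries differed by more than sampling noise (chi-square per gene at least 7.97). Depth was 9888174 to 16896714 counts, and members with few counts carry more counting error.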

Additional observations from a re-analysis of the deposited data

Results flagged for a closer look

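Sesn2 in GF zinc replicate 3 was at 8.61 CPM, far from the other GF zinc libraries at 13.9, 14.2 and 15.2 CPM (gap over range 0.848 in log2 CPM, above Dixon's critical value for 4 samples, and 0.81 in CPM, below it). It was 1 of 30 member and group combinations of 4 libraries examined, and chance alone marks about 1 in 20.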

How the results depend on the processing

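By library totals only, 2 called values reversed, Atf4 in GF against ABX mice on Milli-Q (-0.42) and Asns in GF against ABX mice on zinc (-0.29). Library totals moved the median of all genes to -1.05 and -0.74 there. The number of members called moved as follows. For zinc in GF mice (2) it was 0 by library totals, 4 without a filter and 0 in a fit of only these groups, and 0 to 4 leaving out a library. For GF against SPF mice on zinc (2) it was 4, 4 and 0 under these settings and 0 to 3 leaving out a library. For ABX against SPF mice on zinc (1) it was 0 to 1 leaving out a library. For the zinc effect it was 1 without a filter in ABX against SPF mice, 0 to 1 leaving out a library in GF against SPF mice, and in GF against ABX mice 3 by DESeq2, 3 without a filter and 0 to 3 leaving out a library, from 0 each. Members correlated with Chac1 (3) were 0 without the 2 farthest libraries and 0 by library totals. The cause was not tested for the other settings. A fit of only the groups compared uses fewer libraries, and called 3 genes in all for zinc in GF mice and 14 for GF against SPF mice on zinc.

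By the replicate numbers of the labels, the libraries did not pair. Of 48 pairs with the same number, 7 correlated above 0.1 (range -0.386 to 0.229), and 2 of 21 libraries correlated best with their own number. For GF Milli-Q replicates 2 and 3 the column headers carry other numbers than the labels. Pairing by the header numbers was not tested, and the replicate block used the label numbers. With the replicate block the members called were 0, 3 and 2 for zinc in SPF, ABX and GF mice and 3 for GF against SPF mice on zinc, the addition being Chac1, whose values chose the set, and no other member's call changed.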
